A study of Mus musculus with 12 samples.

Results

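Pre-adipocytes of the 3T3-L1 line kept beneath RAW264.7 macrophages were compared with pre-adipocytes grown alone after 24 h of culture. The comparison rested on 4 of the 12 arrays of the series, the ones titled 24 h, and was described across the 12923 genes that could be tested at that time. 3T3-L1 (spelled 3T3L-1 in the sample labels) is a mouse embryonic fibroblast line able to differentiate into adipocytes, RAW264.7 is a virus-transformed mouse macrophage-like line, and both are single established lines. The macrophages sat in a porous insert above the well, so the cells shared medium without touching, and RNA came from the lower well. The cultures were undifferentiated pre-adipocytes, and no genetic alteration is named for any group. At 24 h they had received no treatment (NT), 100 µM serotonin (S100), 100 µM cortisol (C100) or 100 µM of each hormone (CS100), with the hormone stocks made up in DMSO. On every array co-cultured cells were labelled with Cy5 and cells grown alone, under the treatment of the same name, with Cy3. A value below is log2 of Cy5 over Cy3, so that 1 is a 2-fold higher signal in co-culture, and the values of the 4 arrays are always given in the order NT, S100, C100 and CS100.

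Macrophages release TNF, interleukin 1, interferons, nitric oxide and lactate into shared medium. Fibroblast-like cells answer TNF and interleukin 1 through NF-kB and AP-1, transcription factors that switch on chemokines, proteases and their own inhibitors, and they answer interferons through STAT and IRF factors that switch on antiviral genes. Pre-adipocytes are the dividing precursors of fat cells in adipose tissue, and inflammatory signals from macrophages are known to hold back their differentiation.

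The 4 arrays served as replicates against 0, although each carried another treatment, and the sources used here do not say that the cultures were grown separately. The p-values therefore measure only the spread between these 4 arrays. No array had its dyes swapped, so any preference of a probe for a dye is part of each ratio, and the 4 arrays shared a slide that carried no other time. The log ratios of pairs of arrays correlated, across 12671 genes that are no independent replicates, between 0.553 (S100 with CS100) and 0.806 (S100 with C100). Of 39429 probes, the Cy5 channel had 21276 to 22770 well above background and the Cy3 channel 18395 to 20676, and no spot was saturated. Because whole wells were lysed, fewer cells of a type and less RNA per cell cannot be told apart.

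Genes that glucocorticoids switch on did not follow the labels in the cells grown alone. The log2 Cy3 signal of Zbtb16, a zinc finger repressor strongly induced by glucocorticoids, was 7.99, 10.08, 10.86 and 7.87 in the order of the labels, and its Cy5 signal was 7.52, 8.22, 10.07 and 9.66. The Cy3 signal was thus high on the arrays labelled S100 and C100 and low on those labelled NT and CS100, while the Cy5 signal was high on the arrays labelled C100 and CS100. The array labelled CS100 was dimmer than NT in both channels, with a median over all genes of -0.625 in Cy3 and -0.583 in Cy5, so the signals of such genes were set against the median of all genes of the same channel and array. On that scale their median Cy3 signal relative to NT was 0.371 on the array labelled S100 and 0.415 on that labelled C100 (19 genes), and -0.096 on that labelled CS100 (17 genes). The Cy5 medians were 0.242, 0.233 and 0.622, so that the medians of the arrays labelled S100 and C100 lay close to each other in both channels. Counts that the arrays labelled S100 and CS100 changed are given with and without them. The ratios of Zbtb16 itself were -0.47, -1.86, -0.79 and 1.79, and the gene was not called.

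A gene was called at an adjusted p under 0.05 (limma, Benjamini-Hochberg over 12923 genes, two-sided) with a ratio 1.5-fold or more from 1. The fold was taken from the study's methods. Co-cultured pre-adipocytes had 1149 genes called higher, 8.89% of those tested, and 622 called lower, 4.81%. The median called gene was 0.96 higher (1.94-fold) or at -0.80 (1.74-fold lower), and the median of all genes was 0.0099. Means are followed by ± SD over 4 arrays unless another n is given, and each adjusted p is limma's. Of the called genes, 1104 of 1149 and 595 of 622 had the same sign on all 4 arrays. The change was at least 1.5-fold on every array for 574 genes above 0 and for 222 genes below it. Among the 1149 genes called higher, 256 were not well above background in Cy3 on any array and could be tested through Cy5 alone. Only a bound smaller than the fitted ratio can be given for them, and their calls rest on the fitted ratio and do not test the bound. Of the 622 genes called lower, 586 were well above background in both channels throughout. With the test kept to the 11243 genes above background in both channels on all 4 arrays, 695 genes were higher and 591 lower, which put 54% of the calls above 0 in place of 64.9%. Median centring of background-corrected signals without an intensity-dependent (loess) step raised the median of all genes to 0.4245, gave 4565 higher and 99 lower genes and put 97.9% of the calls above 0. Under that setting the median of ribosomal protein genes moved from 0.06 to 1.658, and results that it turned are marked below with their values without loess. Without the arrays labelled S100 and CS100 there were 1000 genes higher and 685 lower.

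**Figure D1:**
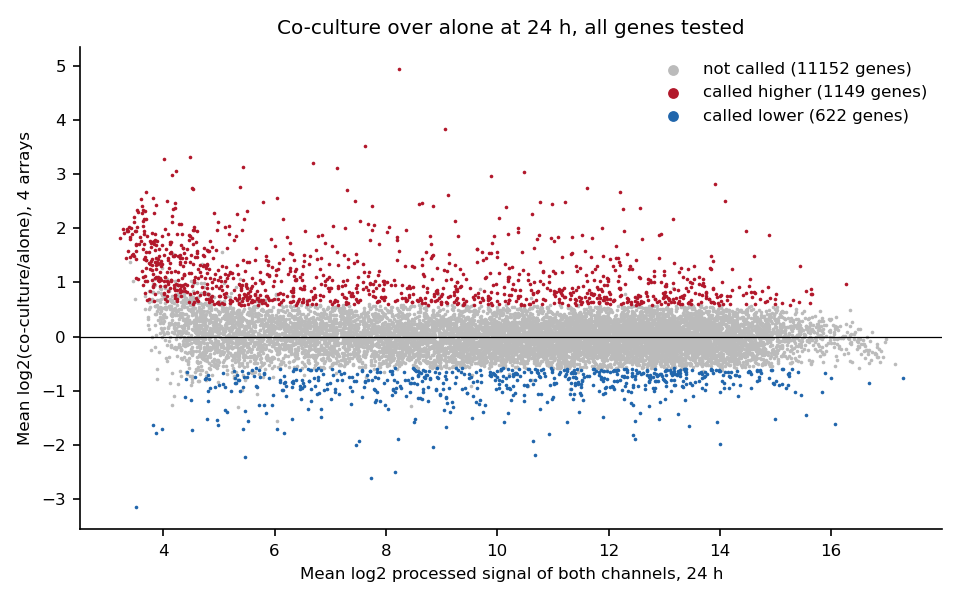
Each point is 1 of the genes tested at 24 h, placed by its mean log2 signal over both channels and 4 arrays (horizontal axis) and by its mean log2 ratio of co-culture over alone (vertical axis). The 1149 genes called higher and the 622 called lower are coloured and the other 11152 are grey. Cstdc4 is the highest point, at 4.94.

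The genes furthest above 0 included protease inhibitors, epithelial and muscle genes and proteases of the matrix. Cstdc4, of the stefin A cluster of cysteine protease inhibitors, was at 4.74, 5.12, 5.01 and 4.89, a mean of 4.94 ± 0.16 (SD, n = 4; adjusted p = 1.61e-06). Its 4 values lay within a narrow range, and the next highest mean, that of Gipr, was 3.82. Csta3, its neighbour in the cluster, was at 3.25, 3.66, 3.86 and 3.31 (3.52 ± 0.29, adjusted p = 3.92e-05), again with all arrays close together. Background correction with an offset of 50 brought these genes to 3.85 and 2.65. Probes may not tell the close copies of this cluster apart.

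Gipr, the receptor of the incretin hormone GIP, was at 3.46, 4.22, 3.88 and 3.73 (3.82 ± 0.32, adjusted p = 3.92e-05), lowest in NT and highest on the array labelled S100. Mrc1, the mannose receptor of macrophages and other scavenging cells, was at 3.15, 3.15, 3.5 and 3.02 (3.20 ± 0.21, adjusted p = 3.92e-05) and hardly differed between arrays, with Cy3 well above background on 2 of the 4. Cavin4, a coat protein of muscle caveolae, was at 2.73, 3.40, 2.91 and 3.09 (3.03 ± 0.29, adjusted p = 3.92e-05). The zinc finger transcription factor Wt1, a regulator of mesothelial and kidney development, was at 2.36, 2.99, 3.11 and 3.38 (2.96 ± 0.43, adjusted p = 9.27e-05) and lowest in NT. Rnf183, a RING-type ubiquitin ligase, was at 2.44, 3.49, 3.53 and 3.00 (3.11 ± 0.51, adjusted p = 0.000179), with Cy3 above background on 2 arrays.

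Several of the highest genes had no Cy3 signal well above background on any array, and a lower bound without a p-value is given for them. The desmosomal cadherin Dsc3 was at least 2.93-fold higher, although the array labelled S100 stood far above the other 3, at 5.21 against 2.45 to 2.96, and the mean fell from 3.31 to 2.68 without it. The intestinal cadherin Cdh17 was at least 2.46-fold higher, the synaptic leucine-rich repeat protein Lrrtm1 at least 2.25-fold, the Myc family factor Mycn at least 2.09-fold and Ssxb6 at least 2.09-fold. With a background offset of 50 the log2 ratios of Dsc3, Cdh17, Lrrtm1, Mycn and Ssxb6 were 1.26, 0.77, 0.76, 1.03 and 1.18. Each bound therefore holds only for the deposited processed signals.

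The lowest genes were led by secreted proteins of the matrix. Asporin (Aspn), a small leucine-rich proteoglycan that binds collagen and TGF-beta, was at -3.14, -3.26, -2.35 and -1.70 (-2.61 ± 0.73, adjusted p = 0.000574), least low on the array labelled CS100. Itgbl1, a secreted relative of integrin beta chains, was at -2.70, -2.75, -2.32 and -2.19 (-2.49 ± 0.28, adjusted p = 6.96e-05) with the arrays close together. Sparcl1, the matricellular protein hevin, was at -2.21, -1.71, -1.72 and -2.04 (-1.92 ± 0.25, adjusted p = 9.27e-05), and pleiotrophin (Ptn), a heparin-binding growth factor, was at -1.74, -1.62, -1.93 and -2.0 (-1.82 ± 0.18, adjusted p = 5.53e-05). All 4 arrays held both genes clearly below 0.

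Apod, a lipocalin that carries lipids, was at -2.17, -1.55, -2.31 and -1.94 (-1.99 ± 0.33, adjusted p = 0.000231). Akr1c14, an aldo-keto reductase of steroids, was at -2.46, -2.06, -1.5 and -2.13 (-2.04 ± 0.40, adjusted p = 0.000255) and the cytochrome P450 Cyp2f2 at -2.05, -1.66, -1.77 and -2.21 (-1.92 ± 0.25, adjusted p = 0.000171). These 3 genes were low on every array. R-spondin 2 (Rspo2), which amplifies Wnt signalling, was at -1.78, -1.23, -1.24 and -2.86 (-1.78 ± 0.77, adjusted p = 0.00421) and the glycerophosphodiesterase Gdpd2 at -2.22, -2.44, -1.94 and -0.61 (-1.80 ± 0.82, adjusted p = 0.00276), with the array labelled CS100 lowest for the former and highest for the latter. Limch1, a regulator of myosin and adhesion, and the sensory receptor Mrgprd had means of -1.72 ± 0.51 and -1.71 ± 0.39 (adjusted p = 0.00218 and 0.000795), Limch1 with Cy3 above background on 3 arrays and, with a background offset of 50, at -0.54 and not called.

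Among the brightest 10% of genes tested, whose ratios are least touched by background, the highest was Gbe1, the glycogen branching enzyme, at 1.96, 2.89, 2.93 and 2.23 (2.50 ± 0.48, adjusted p = 0.000222). Hilpda, a lipid droplet protein that restrains lipolysis, was at 1.41, 1.66, 1.41 and 1.44 (1.48 ± 0.12, adjusted p = 4.07e-05), with 3 arrays almost equal and the array labelled S100 above them. Tnip1, a partner of A20 in curbing NF-kB, was at 1.14, 1.30, 1.47 and 1.06 (1.24 ± 0.18, adjusted p = 0.000183). Ugdh, which makes the sugar nucleotide for hyaluronan, was at 1.07 ± 0.28, the delta-9 desaturase Scd2 at 0.93 ± 0.22, the endoplasmic reticulum chaperone Erp29 at 0.91 ± 0.21 and the cytochrome P450 Cyp1b1 at 0.85 ± 0.18, with adjusted p between 0.000473 and 0.00056. Each of these 4 genes was above 0 on all arrays. The call of Erp29 was lost as a mean of probes (0.53), its other probe being at 0.14 (adjusted p = 0.262). Eif2b2, a subunit of the translation factor eIF2B, was at 0.97, 0.94, 0.71 and 0.76 (0.84 ± 0.13, adjusted p = 0.000289).

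The brightest genes that fell were replication-dependent histones, dividing-cell genes and a few others. The histone H2A gene H2ac22 was at -1.62, -1.62, -1.69 and -1.15 (-1.52 ± 0.25, adjusted p = 0.000183), nearly equal on 3 arrays and less low on the array labelled CS100. H2ac15, H2ac20 and H2ac11 were at -1.45 ± 0.28, -1.07 ± 0.25 and -0.90 ± 0.27, although H2A genes are close copies. Median centring without loess put these 3 genes at 0.09, 0.34 and 0.51, against a median of 0.4245 for all genes. The bright genes called higher named above also moved up under it, with Scd2 at 2.07, Tnip1 at 2.26 and Erp29 at 2.13. Lsm4, a component of RNA processing complexes, was at -1.0, -1.15, -1.23 and -0.98 (-1.09 ± 0.12, adjusted p = 0.000133) and -0.04 under that setting. The surface antigen Ly6c1, low in co-culture at -1.03 ± 0.32, came to 0.59 under it.

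**Figure D2:**
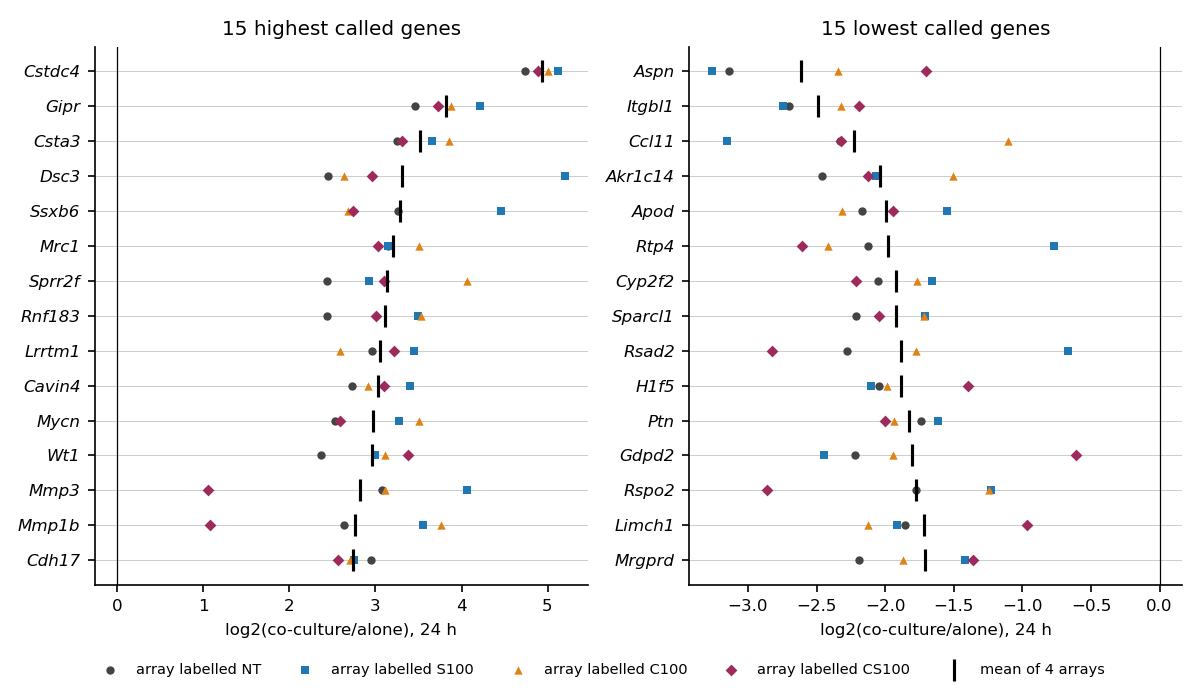
Log2 ratio of co-culture over alone on each of the 4 arrays at 24 h (points, one symbol per array label) with the mean (bar mark) for the 15 highest and the 15 lowest named genes. Cstdc4 stands apart at the top, with its 4 values from 4.74 to 5.12, and Aspn at the bottom, from -3.26 to -1.70.

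Beyond the 2 leading genes, Stfa3 was called higher, as were Cstdc5, Stfa1 and Stfa2l1, which could be tested through Cy5 alone. Of 10 stefin and cystatin genes tested, 6 were called higher and none lower. Only 5 of the 10 were well above background in both channels on all arrays. The list median of 1.24, against 0.0099 for all genes, thus rests in part on Cy3 signals at background. Stfa3 was at 2.50, 3.01, 2.64 and 1.47 (2.40 ± 0.66, adjusted p = 0.000524) and lowest on the array labelled CS100. Cstdc5 was at least 2.98-fold and Stfa1 at least 1.43-fold higher, and Stfa2l1 was not well above background in Cy3 on any array. The distant family members Cst3 (-0.05), Cst6 (0.11) and Cstb (-0.23), and also Stfa2 (-0.18), were not called.

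Genes of the cornified envelope, the protein layer of skin, were also higher, with 13 of 15 called, none lower, and a median of 1.20. Small proline-rich proteins led them. Sprr2f was at 2.44, 2.92, 4.07 and 3.1 (3.13 ± 0.68, adjusted p = 0.000393), highest on the array labelled C100 and with Cy3 above background on 1 array. Sprr2e was at 2.14, 2.95, 2.50 and 2.37 (2.49 ± 0.34, adjusted p = 9.27e-05), and the much brighter Sprr2d at 1.37, 2.52, 2.41 and 1.48 (1.95 ± 0.60, adjusted p = 0.000759). Sprr2d was lower in NT and on the array labelled CS100 than on the other 2. The alarmins S100a8 and S100a9, calcium-binding proteins of neutrophils and inflamed epithelium, were at 1.83 ± 0.34 and 1.07 ± 0.41, and the keratin Krt16 was at 0.73 ± 0.20. The Sprr2 genes are close copies too, and Sprr1a (0.20) and Sprr2k (-0.34) were not called.

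Among the ligands of inflammation, growth factors of myeloid cells and interleukins rose while others fell. The list of interleukins and growth factors had 9 of 20 genes called higher, 2 lower and a median of 0.73. Csf3, which drives neutrophil production, was at 2.09, 2.33, 1.91 and 1.56 (1.97 ± 0.33, adjusted p = 0.000222), with little difference between arrays. Il1a, an alarm cytokine of the interleukin 1 family, was at 1.64, 2.78, 2.40 and 0.27 (1.77 ± 1.11, adjusted p = 0.00922), far lower on the array labelled CS100 than on the others. Csf2, the granulocyte-macrophage factor, was at 1.93, 3.28, 2.91 and -0.38 (1.94 ± 1.64, adjusted p = 0.0267). The array labelled CS100 alone was below 0, the mean without it was 2.71, and the call was lost without NT (adjusted p = 0.0796), without the array labelled S100 (0.0902) or without C100 (0.105).

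Lif, a cytokine of the interleukin 6 family, was at 1.5, 2.50, 1.68 and 0.62 (1.57 ± 0.77, adjusted p = 0.00394), and its relative Il11 was at 1.39, 2.07, 1.37 and -0.12 (1.18 ± 0.92, adjusted p = 0.0208). Both were lowest on the array labelled CS100. The EGF receptor ligands Ereg and Hbegf were at 1.27 ± 0.59 and 1.05 ± 0.17 (adjusted p = 0.00297 and 0.000298), and the angiogenic factor Vegfa at 0.77 ± 0.10 (adjusted p = 0.000317). Il19 was at 1.02 ± 0.80, a call lost without the array labelled S100 (adjusted p = 0.0701) or C100 (0.0594) and, at 0.46, without those labelled S100 and CS100 (0.0959). Its other probe was at 0.64 (adjusted p = 0.151), and as a mean of probes the call was lost (0.83, adjusted p = 0.0568). The 2 lower genes were Il1rn, the natural antagonist of interleukin 1, at -1.07, -1.19, -1.12 and -0.49 (-0.97 ± 0.32, adjusted p = 0.00174), and Il15, a growth factor of lymphocytes, at -0.80 ± 0.58 (adjusted p = 0.0304). Il6 was at 1.22, 2.18, 1.11 and -0.90 (0.90 ± 1.30) and was not called (adjusted p = 0.13).

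Chemokines went both ways, with 5 of 20 called higher, 4 lower and a median of -0.13, which background correction with an offset of 50 turned to 0.062. The neutrophil attractant Cxcl1 was at 0.48, 1.49, 1.45 and 0.22 (0.91 ± 0.65, adjusted p = 0.0157), high on the arrays labelled S100 and C100 only, and its call was lost without the one (0.72, adjusted p = 0.0511) or the other (0.73, adjusted p = 0.0653). Cxcl16, a membrane-bound chemokine, was at 1.15 ± 0.80 (adjusted p = 0.0143), Cxcl3 at least 1.66-fold and Ccl4 at least 1.23-fold higher. Cxcl2 was called too, without a Cy3 signal well above background. On the lower side stood eotaxin (Ccl11), which attracts eosinophils, at -2.33, -3.15, -1.11 and -2.32 (-2.23 ± 0.84, adjusted p = 0.0021), and Ccl6 at -0.75 ± 0.24. Cxcl9 and Cxcl10, lymphocyte attractants induced by interferons, were at -0.99, 0.09, -1.92 and -2.20 and -1.88, 0.01, -1.11 and -2.71 (adjusted p = 0.0333 and 0.0233), near 0 on the array labelled S100 and low on the others. Without that array 3 chemokines were called higher and 7 lower, and without the array labelled CS100 the counts were 8 and 4. Ccl3 (0.87), Cxcl5 (0.41) and Ccl8 (-0.48) were not called.

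Some receptors of cytokines were higher. Of 22 tested, 5 were called higher and none lower, with a median of 0.27. Il13ra2, a decoy receptor of interleukin 13, was at 2.29, 3.44, 2.64 and 1.06 (2.36 ± 0.99, adjusted p = 0.00202), highest on the array labelled S100 and lowest on that labelled CS100. Its signalling relatives Il13ra1 and Il4ra were at 0.85 ± 0.26 and 0.73 ± 0.17, the LIF receptor Lifr at 0.90 ± 0.54 and the interleukin 33 receptor Il1rl1 at 0.78 ± 0.36. Other probes, not called, were at 0.57 for Il4ra and at 0.29 and -0.11 for Il1rl1. The TNF receptors Tnfrsf1a (0.22) and Tnfrsf1b (0.43) were not called.

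Of 21 tested genes of the NF-kB list, 9 were called higher and none lower, with a median of 0.44, and 16 had an adjusted p under 0.05 with a value above 0 when no fold was asked for. Over all 12923 genes tested, 5622 had such an adjusted p in either direction. Tnfaip3 (A20), an enzyme that removes ubiquitin and damps the pathway, was at 1.48, 1.82, 2.19 and 1.76 (1.81 ± 0.29, adjusted p = 0.000179). The TNF receptor adaptor Traf1 was at 1.75, 2.14, 2.16 and 1.35 (1.85 ± 0.38, adjusted p = 0.000309). Both were well above 0 on all arrays. Nfkbiz, a nuclear cofactor, was at 1.5 ± 0.27, Tnip3 at 1.48 ± 0.41, the survival gene Ier3 at 1.38 ± 0.40 (n = 3), Birc3 at 0.74 ± 0.31 and the inhibitor Nfkbia at 0.74 ± 0.24. The subunits Nfkb1 (0.06), Nfkb2 (0.27), Rela (0.36) and Relb (0.12) were not called, nor were Cflar (0.44), Bcl2l1 (0.44), Bcl3 (0.41), Cyld (0.28), Nfkbib (0.20), Birc2 (0.03) and Traf2 (-0.35). The counts without each array ran from 8 to 9 higher.

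The promoters of Cxcl2 and Tnfaip3 are shown because, among genes of the chemokine and NF-kB lists called higher, they had the largest ratios whose window held the NF-kB motif searched, GGGNNNTTC on either strand, whose matches are in capitals (a reverse-strand match reads GAANNNCCC). Promoters are RefSeq sequences of build GRCm38.p6 from 250 bases before to 50 after the start of the gene, and the motif was in 14.0% of all 32851 promoters. Of 14 genes of the NF-kB and chemokine lists called higher, 11 had a promoter and 7 of these held the motif, against 17.8% of 10308 tested genes with a promoter. Among the 14, Cxcl2, Cxcl3 and Ccl4 had no Cy3 signal well above background and could be tested through Cy5 alone. With a background offset of 50 Cxcl2 was at 0.55 and not called. The share describes genes chosen by their calls and was not tested. A match describes the letters of the window and is not a measured binding site.
Cxcl2, chr5:90903649-90903948, plus strand, 3 matches that overlap in part: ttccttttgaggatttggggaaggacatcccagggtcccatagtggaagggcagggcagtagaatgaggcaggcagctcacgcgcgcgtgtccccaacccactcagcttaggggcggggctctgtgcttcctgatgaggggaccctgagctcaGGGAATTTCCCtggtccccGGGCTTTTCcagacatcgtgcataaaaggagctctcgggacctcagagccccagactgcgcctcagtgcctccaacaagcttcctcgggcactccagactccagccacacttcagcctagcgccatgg
Tnfaip3, chr10:19015361-19015660, minus strand, 3 matches: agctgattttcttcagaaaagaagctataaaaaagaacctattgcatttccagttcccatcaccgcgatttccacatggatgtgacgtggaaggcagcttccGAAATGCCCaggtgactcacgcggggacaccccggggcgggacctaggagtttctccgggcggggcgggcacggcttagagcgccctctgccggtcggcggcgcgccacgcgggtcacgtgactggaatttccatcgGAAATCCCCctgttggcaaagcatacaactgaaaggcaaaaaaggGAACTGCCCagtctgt
The AP-1 motif TGANTCA, in 7.81% of all promoters, was also in the window of Tnfaip3 and not in that of Cxcl2.

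Immediate early genes, which growth factors and stress switch on within minutes, were higher in part. Of 22 tested, 6 were called higher and 1 lower, with a median of 0.35. The AP-1 subunits Fos and Fosb were at 1.99, 2.66, 2.10 and 2.29 (2.26 ± 0.29, adjusted p = 9.03e-05) and 1.78, 2.68, 2.11 and 1.51 (2.02 ± 0.51, adjusted p = 0.000467). Both were high on all arrays and highest on the array labelled S100. Fosl1 (1.06 ± 0.17) and Jun (1.1 ± 0.58) were higher as well, whereas Egr1 (0.29), Junb (0.22) and Myc (-0.08) were not called. The phosphatases of MAP kinases split, with Dusp1 at 1.11 ± 0.36 and Dusp6 at 0.59 ± 0.41 but Dusp2 at -1.16, -0.03, -0.74 and -1.95 (-0.97 ± 0.80, adjusted p = 0.0261), near 0 on the array labelled S100.

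Antiviral genes that interferons switch on fell as a group, except that median centring without loess moved their median to 0.056, still below that of all genes by 0.368. Of 28 tested, none was called higher and 17 were called lower, with a median of -0.71, and all 28 means were below 0. Rtp4, a chaperone of receptors induced by interferons, was at -2.13, -0.77, -2.41 and -2.60 (-1.98 ± 0.83, adjusted p = 0.00203). Viperin (Rsad2), which makes an antiviral nucleotide, was at -2.28, -0.67, -1.78 and -2.82 (-1.89 ± 0.92, adjusted p = 0.00344). Both were lowest on the array labelled CS100 and least low on that labelled S100. Isg15, a ubiquitin-like protein, was at -1.05, -0.36, -1.20 and -1.18 (-0.95 ± 0.40, adjusted p = 0.00233), and Usp18, which removes it, at -1.28 ± 0.59 (adjusted p = 0.00315). The RNA sensors Ifih1 and Dhx58 were at -1.17 ± 0.38 and -0.90 ± 0.66, and the transcription factors Irf7 and Stat2 at -0.91 ± 0.47 and -0.61 ± 0.39. Ifit1, which binds viral RNA, was at -1.32, 0.11, -1.68 and -3.04 (-1.48 ± 1.30, adjusted p = 0.0301), with a call that was lost without NT (adjusted p = 0.0786) or without C100 (adjusted p = 0.0987).

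GTPases of the immune response, which attack the vacuoles of intracellular pathogens, fell alongside, with 11 of 15 called lower, none higher and a median of -0.86. Tgtp2 was at -1.99, -0.64, -1.77 and -2.22 (-1.65 ± 0.70, adjusted p = 0.0022) and Ifi47 at -1.71, -0.33, -1.06 and -1.90 (-1.25 ± 0.71, adjusted p = 0.00649). Irgm1 (-1.07 ± 0.44), Gbp3 (-1.01 ± 0.68) and Iigp1 (-0.96 ± 0.37) were also lower, while Gbp2 (0.29), Gbp5 (-0.75), Gbp8 (-0.19) and Gbp9 (-0.55) were not called. Presentation genes of MHC class I, which interferons also raise, were not called in either direction among 17 tested (median 0.13, against 8.89% higher and 4.81% lower over all genes). By limma's unadjusted p under 0.05, 6 of them lay above 0 and 2 below it, while 6790 of all 12923 genes tested had such a p in either direction.

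The array labelled S100 stood apart for the interferon genes and the array labelled CS100 for cytokines and proteases. Over the 28 antiviral and GTPase genes called lower, the median ratio was -1.09, -0.28, -1.09 and -1.33. Over 20 cytokine and metalloproteinase genes called higher, it was 1.51, 2.01, 1.70 and 0.48. Those medians describe genes that were chosen by their calls and carry no test. In single channels, the antiviral list had a median log2 signal of 12.74, 12.95, 11.41 and 11.61 in Cy5 and of 13.53, 12.89, 12.69 and 13.00 in Cy3. These signals were not set against all genes, whose median on the array labelled CS100 relative to NT was -0.583 in Cy5 and -0.625 in Cy3. Without the array labelled S100, 22 antiviral genes and 13 GTPases were called lower, without NT 10 and 7, without C100 11 and 8, and without the array labelled CS100 14 and 9. Without those labelled S100 and CS100 the counts were 20 and 13. Without loess the median of the GTPases was -0.377, below that of all genes by 0.801, and 7 antiviral genes were called lower and 2 higher.

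**Figure D3:**
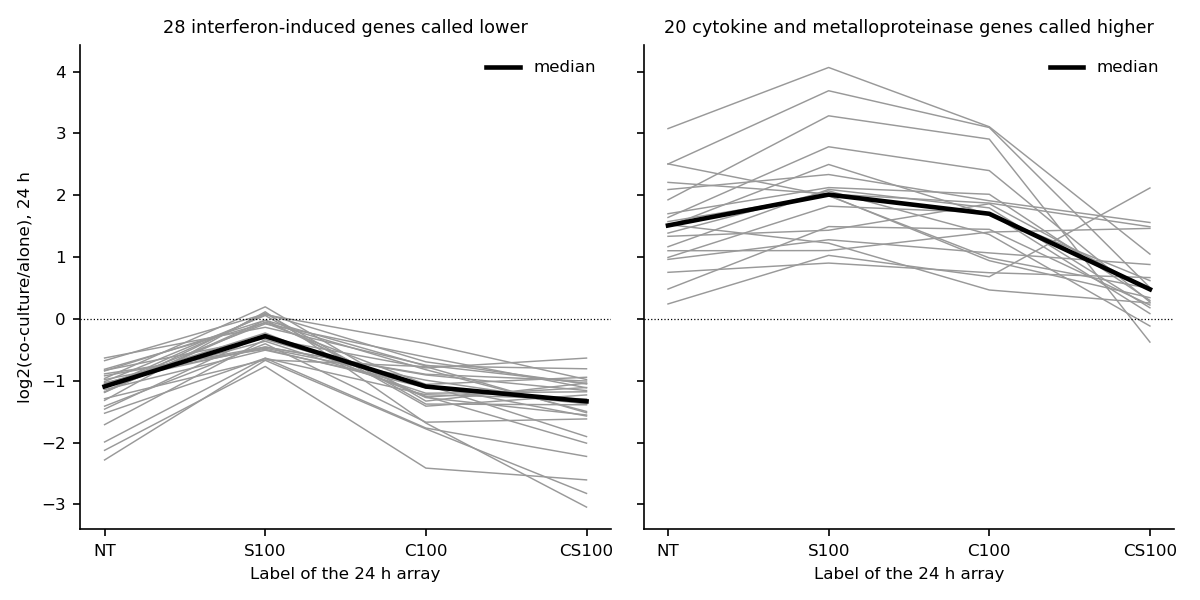
Log2 ratio of co-culture over alone (vertical axis) by array label (horizontal axis) for interferon genes called lower (28 genes) and for cytokine and metalloproteinase genes called higher (20 genes), with grey lines joining the 4 values of a gene and a thick black line joining the medians. The lines only link values and stand for no order of the arrays. The interferon genes come nearest to 0 on the array labelled S100 (median -0.28), and the cytokine and protease genes on the array labelled CS100 (median 0.48).

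The promoters of 2 antiviral genes are given because, among called antiviral genes, they had the largest ratios whose window held the interferon response motif searched, GAAANNGAA or its reverse TTCNNTTTC, in capitals. It was in 8.56% of all promoters and in 8.58% of tested genes with a promoter, and in 8 of the 13 antiviral genes called lower that had one.
Rsad2, chr12:26456403-26456702, minus strand, 1 match: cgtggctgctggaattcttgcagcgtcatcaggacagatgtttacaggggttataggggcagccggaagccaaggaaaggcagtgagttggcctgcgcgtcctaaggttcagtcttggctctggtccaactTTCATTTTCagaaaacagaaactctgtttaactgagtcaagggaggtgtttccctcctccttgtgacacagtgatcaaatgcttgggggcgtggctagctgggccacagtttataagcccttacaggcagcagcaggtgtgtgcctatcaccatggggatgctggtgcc
Ifit1, chr19:34640639-34640938, plus strand, 3 matches that overlap in part: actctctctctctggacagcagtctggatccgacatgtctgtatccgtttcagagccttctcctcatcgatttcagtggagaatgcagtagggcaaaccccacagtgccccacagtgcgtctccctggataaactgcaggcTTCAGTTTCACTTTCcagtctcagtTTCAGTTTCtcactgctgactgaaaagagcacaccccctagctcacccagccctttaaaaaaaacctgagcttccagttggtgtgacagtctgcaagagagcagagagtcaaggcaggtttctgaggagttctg
The window of Rsad2 also held the AP-1 motif.

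Most genes of cell division fell. Of 28 mitosis genes tested, 19 were called lower and none higher, with a median of -0.72, all 28 means below 0 and 27 with an adjusted p under 0.05 when no fold was asked for. That adjusted p was reached, in either direction, by 5622 of all 12923 genes tested. Mnd1, in the list although it serves recombination, was at -1.66, -1.58, -1.78 and -1.21 (-1.56 ± 0.25, adjusted p = 0.000191) and the centromere protein gene Cenpk at -1.17, -1.33, -1.46 and -0.91 (-1.22 ± 0.24, adjusted p = 0.000343). Cyclin B1 (Ccnb1), which starts mitosis, was at -1.23, -1.37, -1.39 and -0.72 (-1.18 ± 0.32, adjusted p = 0.000616). All 3 were least low on the array labelled CS100. Cdc20, an activator of the anaphase-promoting complex, and the kinetochore motor Cenpe were at -0.95 ± 0.20 and -0.95 ± 0.19 (adjusted p = 0.000413 and 0.000403). The counts without each array ran from 18 to 20. Under median centring without loess the list median was -0.148, below that of all genes by 0.572, and Cdc20 and Cenpe came to 0.06 and 0.02.

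Of 28 replication genes, 11 were called lower and none higher, with a median of -0.48, which turned to 0.091 without loess, below that of all genes by 0.334. The helicase subunit Mcm6 was at -0.91, -1.1, -1.14 and -0.63 (-0.95 ± 0.23, adjusted p = 0.000547) and the polymerase subunit Pola1 at -0.89, -1.27, -1.11 and -0.46 (-0.93 ± 0.35, adjusted p = 0.00189). The ribonucleotide reductase genes Rrm1 and Rrm2 were at -0.71 ± 0.25 and -0.88 ± 0.39, and Pcna (-0.49) was not called. Without loess Mcm6 was at 0.21. Histones had 6 of 14 genes called lower, none higher and a median of -0.45, which turned to 0.425 without loess, level with all genes. The linker histone H1f5 was at -2.05, -2.10, -1.99 and -1.40 (-1.88 ± 0.33, adjusted p = 0.000255), least low on the array labelled CS100, and the core histone H2ac4 at -1.1 ± 0.18.

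Genes that arrest growth were called in both directions, 5 of 23 higher and 1 lower. Ccng2, a cyclin that marks arrested cells, was at 1.63, 1.92, 1.32 and 1.32 (1.55 ± 0.29, adjusted p = 0.00025). The cyclin-dependent kinase inhibitors Cdkn1a (p21) and Cdkn1b (p27) were at 1.49, 1.21, 0.76 and 1.52 (1.24 ± 0.35, adjusted p = 0.00072) and 0.76 ± 0.20, while Cdkn2c was at -0.73 ± 0.15. Cdkn1a was lowest in C100. The p53 targets Mdm2 (-0.31), Bax (-0.35) and Zmat3 (-0.07) were not called, and the list median was -0.04.

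Targets of the hypoxia-inducible factor HIF were higher, with 13 of 21 called higher, 1 lower and a median of 0.65. Ankrd37 was at 1.74, 2.47, 1.79 and 1.76 (1.94 ± 0.35, adjusted p = 0.000222), with the array labelled S100 above 3 nearly equal arrays. Carbonic anhydrase 12 (Car12), which balances pH outside the cell, was at 1.57, 2.31, 2.04 and 1.64 (1.89 ± 0.35, adjusted p = 0.000222). The oxidase of protein folding Ero1a was at 1.24 ± 0.30, the vasodilator peptide gene Adm at 1.15 ± 0.23 and carbonic anhydrase 9 (Car9) at 0.88 ± 0.24. Egln1 and Egln3, the oxygen-sensing enzymes that mark HIF for destruction, were at 0.90 ± 0.26 and 0.82 ± 0.16, and the mitophagy genes Bnip3 and Bnip3l at 0.79 ± 0.16 and 0.69 ± 0.07. The lower gene was Hif1a, the factor's own subunit, at -0.54, -0.75, -0.57 and -0.64 (-0.62 ± 0.09, adjusted p = 0.000473), and its relative Epas1 (-0.26) was not called.

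Glycolysis had 7 of 21 genes called higher, none lower and a median of 0.44. The glucose transporter Slc2a1 was at 1.17, 1.83, 1.40 and 1.14 (1.39 ± 0.32, adjusted p = 0.000403), highest on the array labelled S100. Pdk1, which keeps pyruvate out of mitochondria, was at 0.80, 0.94, 0.85 and 1.08 (0.92 ± 0.12, adjusted p = 0.000298), and the lactate exporter Slc16a3 at 0.90 ± 0.17. Hexokinases Hk1 and Hk2 were at 0.79 ± 0.18 and 0.64 ± 0.08, whereas Ldha (0.52), Gapdh (0.14) and Pgk1 (-0.51) were not called. The counts of HIF targets without each array ran from 11 to 14 higher.

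Of 22 genes of glycogen and the pentose phosphate pathway, 7 were higher and 1 lower (median 0.26). The 7 belong to glycogen, while the glycogen genes Gyg (-0.23), Pygb (-0.02) and Pygm (0.09) were not called. Those shown here are Gbe1 (2.50 ± 0.48), the targeting subunits of the glycogen phosphatase Ppp1r3c at 1.42, 2.12, 1.29 and 1.41 (1.56 ± 0.38, adjusted p = 0.000456) and Ppp1r3b (1.15 ± 0.20, n = 3), the synthase Gys1 (0.74 ± 0.15), Ugp2, which makes UDP-glucose (0.86 ± 0.05), and the glycogen tether Stbd1 (0.73 ± 0.09). The array labelled S100 was highest for Ppp1r3c, and the other probe of Gys1, at 0.57, was not called. The lower gene, Rpia at -0.72 ± 0.10, belongs to the pentose phosphate pathway, whose other genes tested, among them G6pdx (0.06), Pgd (0.53) and Tkt (0.04), were not called.

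The core letters of the hypoxia response element, ACGTG or CACGT, were in 19.6% of all promoters and 28.5% of those of tested genes. Of 20 HIF and glycolysis genes called higher, 17 had a promoter, of which 12 held the letters. The windows of Ankrd37 and Slc2a1 are shown as the genes called higher with the largest ratios that had a match.
Ankrd37, chr8:45999801-46000100, minus strand, 2 matches: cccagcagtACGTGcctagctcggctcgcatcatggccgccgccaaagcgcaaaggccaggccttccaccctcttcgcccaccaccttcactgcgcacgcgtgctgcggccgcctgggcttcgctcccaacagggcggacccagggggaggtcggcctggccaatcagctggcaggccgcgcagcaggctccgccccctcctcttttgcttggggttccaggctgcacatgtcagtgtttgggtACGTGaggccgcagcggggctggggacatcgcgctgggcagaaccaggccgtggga
Slc2a1, chr4:119108495-119108794, plus strand, 1 match: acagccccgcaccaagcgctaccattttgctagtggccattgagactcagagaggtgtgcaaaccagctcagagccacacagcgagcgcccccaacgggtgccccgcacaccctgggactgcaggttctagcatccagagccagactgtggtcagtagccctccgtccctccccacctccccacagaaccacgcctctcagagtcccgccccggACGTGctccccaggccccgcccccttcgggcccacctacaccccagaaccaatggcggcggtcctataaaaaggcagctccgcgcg

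Proteases that cut the matrix rose, with 6 of 19 metalloproteinase and inhibitor genes called higher, none lower and a median of 0.20. Mmp3, stromelysin 1, was at 3.08, 4.07, 3.11 and 1.05 (2.82 ± 1.27, adjusted p = 0.00251) and Mmp10, stromelysin 2, at 2.50, 3.69, 3.09 and 0.51 (2.45 ± 1.38, adjusted p = 0.00599). Both were far lower on the array labelled CS100, without which their means were 3.42 and 3.1. Mmp1b, a relative of the interstitial collagenases outside that list, was at 2.64, 3.56, 3.77 and 1.08 (2.76 ± 1.22, adjusted p = 0.0027), with Cy3 above background on 1 array and the same low array. Mmp13 and Mmp9, a collagenase and a gelatinase, were at 2.51, 1.99, 0.99 and 0.49 and 1.57, 2.0, 0.94 and 0.34 (adjusted p = 0.00854 and 0.00864), high in NT and on the array labelled S100. The inhibitor Timp3 was higher too (0.87 ± 0.60), whereas Mmp2 (-0.04), Mmp14 (-0.57) and Timp1 (0.48) were not called.

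The plasminogen system had 5 of 13 genes higher, none lower and a median of 0.50. Serpinb2, an inhibitor of plasminogen activators, was at 3.03, 2.75, 2.73 and 2.42 (2.73 ± 0.25, adjusted p = 3.92e-05). Plau, the activator urokinase, was at 1.44 ± 0.59 with Cy3 above background on 1 array, and thrombomodulin (Thbd), which turns thrombin to an anticoagulant, was at 1.42, 1.73, 1.45 and 1.35 (1.49 ± 0.17, adjusted p = 9.03e-05). All arrays had these 3 genes above 0.

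Matrix genes were called in both directions. Of 24 collagens and their assembly enzymes, 5 were higher and 2 lower (median 0.03). The cross-linking enzymes Loxl2, at 1.83, 1.99, 1.81 and 1.77 (1.85 ± 0.10, adjusted p = 3.92e-05), and Lox (1.0 ± 0.18), the hydroxylases P4ha2 (0.88 ± 0.26) and Plod2 (0.75 ± 0.28) and the minor fibril collagen Col5a3, at 1.28, 1.43, 0.98 and 1.19 (1.22 ± 0.19, adjusted p = 0.000222), were the higher ones. The lower ones were Col3a1, a main fibril collagen, at -0.64, -0.75, -0.87 and -0.60 (-0.72 ± 0.12, adjusted p = 0.000439), and Col6a2 (-0.74 ± 0.28), and Col3a1 came to 0.22 without loess. Col1a1 (0.09) and Col1a2 (-0.31) were not called. Of 23 glycoproteins and proteoglycans, 6 were lower, 3 higher and the median was -0.04. Next to Aspn and Sparcl1, fibromodulin (Fmod) was at -1.34 ± 0.15, periostin (Postn) at -1.17 ± 0.24, osteoglycin (Ogn) at -1.04 ± 0.25 and Fbln5, of elastic fibres, at -0.74 ± 0.32, while decorin (Dcn) was at 0.89 ± 0.22 (n = 3) and the basement membrane protein Nid1 at 1.1 ± 0.27. The other probes of Nid1 were both at 0.45 and not called.

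Of 19 contractile genes 2 were higher, the matricellular genes Ccn2 at 1.09, 1.35, 2.11 and 2.17 (1.68 ± 0.54, adjusted p = 0.000891) and Ccn1 at 0.45, 1.32, 1.27 and 1.23 (1.07 ± 0.41, adjusted p = 0.00181), and Acta2 (-0.41) was not called (median 0.06). Both were lowest in NT. Of 22 genes of the TGF-beta family, 4 were higher and none lower (median 0.29), among them the inhibitory Smad6 (0.73 ± 0.20) and Smad7 (0.67 ± 0.21) and the activin subunit Inhba (0.68 ± 0.51), whose call was lost without the array labelled NT, S100 or C100. Its value was 0.65, 0.48 and 0.71 then, with adjusted p of 0.0695, 0.0396 and 0.0602. Of 19 Wnt genes, 2 were higher and 3 lower (26.3% in all, against 8.89% higher and 4.81% lower over all genes, median 0.11). The lower ones were the secreted antagonists Sfrp2, at -1.83, -1.45, -0.86 and -1.85 (-1.5 ± 0.47, adjusted p = 0.000858), and Dkk3 (-0.94 ± 0.46) and the planar polarity gene Prickle1 (-0.91 ± 0.32). The ligand Wnt10b, known to hold back adipogenesis, was at 0.18, 1.39, 1.62 and 0.64 (0.96 ± 0.67, adjusted p = 0.0225), a call that was lost without the array labelled S100 (adjusted p = 0.0787) or C100 (0.0924) and without those labelled S100 and CS100 (0.078).

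Genes of itaconate, nitric oxide and arginine metabolism and of lipid mediators were among the called ones. Of 10 genes of itaconate, nitric oxide, biopterin and arginine, 5 were higher and 2 lower (median 0.47). Acod1, which makes itaconate, was at 2.12, 3.29, 2.88 and 1.63 (2.48 ± 0.74, adjusted p = 0.000679), and Gch1, which starts the synthesis of the cofactor of nitric oxide synthase, at 1.38, 1.86, 1.51 and 1.16 (1.48 ± 0.29, adjusted p = 0.000307). Both were highest on the array labelled S100. The synthase Nos2 itself was at 1.88 ± 0.89 (n = 3), and the polyamine genes Odc1 and Azin1 were lower at -0.75 ± 0.29 and -0.74 ± 0.15. Of 13 prostaglandin genes, 3 were higher and 2 lower (median 0.05). Ptgs2, the inducible cyclooxygenase, was at 1.81, 2.09, 1.49 and 0.39 (1.45 ± 0.74, adjusted p = 0.00443), low on the array labelled CS100. Ptgfr, the receptor of prostaglandin F2 alpha that restrains adipogenesis, was at -1.73, -1.54, -1.39 and -1.63 (-1.57 ± 0.14, adjusted p = 6.96e-05) and alike on all arrays. Of 13 complement genes, 4 were higher and none lower (median 0.11), led by factor B (Cfb) at 1.83, 2.53, 2.03 and 1.18 (1.89 ± 0.56, adjusted p = 7e-04). Without the array labelled S100 or that labelled C100 the count was 1, and without those labelled S100 and CS100 it was 2.

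Regulators of fat cell formation were called in both directions. Of 27 adipogenic regulators, 1 was higher and 1 lower (7.41% in all, against 8.89% higher and 4.81% lower over all genes), with a median of -0.03. Zfp423, which commits cells to the pre-adipocyte fate, was at -1.12, -0.84, -1.14 and -0.99 (-1.02 ± 0.14, adjusted p = 0.000404) and Klf5, an early factor of differentiation, at 0.85, 0.65, 0.65 and 0.80 (0.74 ± 0.10, adjusted p = 0.000439). The 4 arrays were close together for each. However, the other probe of Zfp423 was at -0.41 (adjusted p = 0.115), and its call was lost without loess (-0.52). Probes of Ppargc1a (-1.24) and Rxra (-0.64) other than those that stood for the genes were called lower. The master regulator Pparg (-0.24 ± 0.23, adjusted p = 0.0693) and Cebpb (0.38 ± 0.14, adjusted p = 0.00452) were not called. Of 9 mature adipocyte markers, Plin4, a coat protein of lipid droplets, was lower at -1.09, -0.84, -1.06 and -0.64 (-0.91 ± 0.21, adjusted p = 0.000524), the insulin-sensitive glucose transporter Slc2a4 was at least 1.69-fold higher and the other 7 were not called. With a background offset of 50 Slc2a4 was at 0.58 and not called.

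Lipid genes were called in both directions. Of 26 genes of fatty acid uptake and oxidation, 6 were higher and 2 lower, with a median near 0. Lipoprotein lipase (Lpl), which frees fatty acids from circulating lipid, was at -1.57, -1.34, -1.63 and -1.77 (-1.58 ± 0.18, adjusted p = 8.86e-05) and lower on every array. The fatty acid transporter Slc27a3 was at 1.58, 2.08, 1.97 and 1.71 (1.83 ± 0.23, adjusted p = 9.27e-05), the oxidized LDL receptor Olr1 at 1.19 ± 0.22 and the synthetase Acsbg1 at 1.08 ± 0.26. Cpt1a, which carries fatty acids into mitochondria, was at -0.63 ± 0.15 and, at -0.56, was not called without the arrays labelled S100 and CS100. The oxidation enzymes Acadl (-0.39), Acadm (-0.25) and Acaa1a (0.18) and the synthetases Acsl1 (-0.30) and Acsl4 (0.32) were not called. Of 20 lipogenic genes, 4 were higher and none lower (median 0.10), with Scd2 at 0.67, 0.96, 1.20 and 0.91, the phosphatase Lpin1 at 0.98 ± 0.14 and Acss2, which activates acetate, at 0.34, 0.97, 1.27 and 1.18 (0.94 ± 0.42, adjusted p = 0.00302). Acss2 was lowest in NT, and its other probe, at 0.56, was not called.

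Cholesterol synthesis had none of 21 genes called higher and 1 called lower, 4.76% against 4.81% of all genes. Its median of -0.22 turned to 0.314 without loess, below that of all genes by 0.11. The lower gene was Hmgcs1 at -0.99, -0.65, -0.31 and -0.53 (-0.62 ± 0.29, adjusted p = 0.00435). That call was lost without NT (-0.50), and without loess the value was 0.06. Of 13 efflux genes, 2 were higher and 1 lower (median 0.17). Apoe, an apolipoprotein of fat tissue and macrophages, was at 0.62, 0.52, 0.55 and 0.99 (0.67 ± 0.22, adjusted p = 0.0021), highest on the array labelled CS100, without which it was at 0.56 and not called. Of 20 genes of insulin and IGF signalling, Igfbp3 was at least 1.12-fold higher and Igfbp5 lower at -1.20, -0.11, -1.0 and -1.99 (-1.07 ± 0.78, adjusted p = 0.016), and the kinase Pdpk1 (0.05) was not called (median 0.04). The call of Igfbp5 was lost without NT (adjusted p = 0.0601) or C100 (0.0543). The 2 called genes were 10% of the insulin and IGF list, against 8.89% higher and 4.81% lower over all genes.

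None of 19 ER stress genes was called in either direction (median 0.01), against 8.89% higher and 4.81% lower over all genes. By limma's unadjusted p under 0.05 there were 6 above 0 and 5 below it, while 6790 of all 12923 genes tested had such a p in either direction. Of 27 NRF2 and glutathione genes, 3 were higher, 11.1% against 8.89% of all genes, none was lower and the median was 0.12. The higher ones were Gsta3 (0.83 ± 0.58), Srxn1 (0.70 ± 0.31) and Gclc (0.69 ± 0.51). The call of the transferase Gsta3 was lost without NT (adjusted p = 0.0555), S100 (0.0508) or C100 (0.0677). The transferrin receptor Tfrc, which brings in iron, was lower at -0.49, -1.31, -0.75 and -0.98 (-0.88 ± 0.35, adjusted p = 0.00224), the zinc transporter Slc39a14 higher at 0.82 ± 0.39 and the metallothionein Mt2 higher at 0.97 ± 0.13 (n = 3), in a list of 16 with 3 higher, 1 lower and a median of 0.11. The other probes of Tfrc were at -0.54 and -0.58 and not called. Heat shock genes had 2 of 15 higher, Hspa4l at 0.92, 1.01, 1.12 and 0.97 (1.0 ± 0.09, adjusted p = 0.000167) and Cryab (0.84 ± 0.19), and the chaperonin Hspe1 lower (-0.82 ± 0.13). Amino acid response genes had 2 of 22 higher, 9.09% against 8.89% of all genes, and none lower. Lysosomal genes had 1 of 26 each way, the lower one being Atp6v0d2 at -1.18 ± 0.48, a subunit of the proton pump. That was 7.69% called in all, against 8.89% higher and 4.81% lower over all genes.

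Ribosomal, respiratory and housekeeping genes served as lists where little movement was looked for. Of 29 ribosomal protein genes 1 was called (Rpl4, 0.76 ± 0.13), of 27 respiratory genes 1 (Uqcrh, 0.66 ± 0.04) and of 14 housekeeping genes 1 (Tfrc), and the medians were 0.06, -0.05 and -0.08. Without loess the ribosomal median was 1.658, above all genes by 1.234, the largest move relative to all genes among the 49 lists under that setting. Of 15 clock genes, 3 were higher and 1 lower (median 0.34). The repressor Bhlhe41 was at 1.61, 0.72, 1.63 and 1.76 (1.43 ± 0.48, adjusted p = 0.00172), with the array labelled S100 well below the rest, and Nr1d2 at -1.20, -0.43, -1.0 and -1.57 (-1.05 ± 0.48, adjusted p = 0.00317). Of 9 serotonin and glucocorticoid handling genes, the serotonin receptor Htr2a was higher at 1.32, 1.63, 1.37 and 1.41 (1.43 ± 0.14, adjusted p = 0.000321), close together on all arrays, the serotonin-degrading oxidase Maoa was lower at -0.73 ± 0.29 and Tph1, which makes serotonin, was at least 1.01-fold higher. The call of Tph1 was lost without the array labelled S100 (adjusted p = 0.0606) or C100 (0.105) and without those labelled S100 and CS100 (0.0825). Of 19 glucocorticoid-induced genes, Dusp1 and Mt2 were higher and none was lower (median 0.18). Without the array labelled CS100 the counts were 2 and 4 and the median -0.084.

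**Figure D4:**
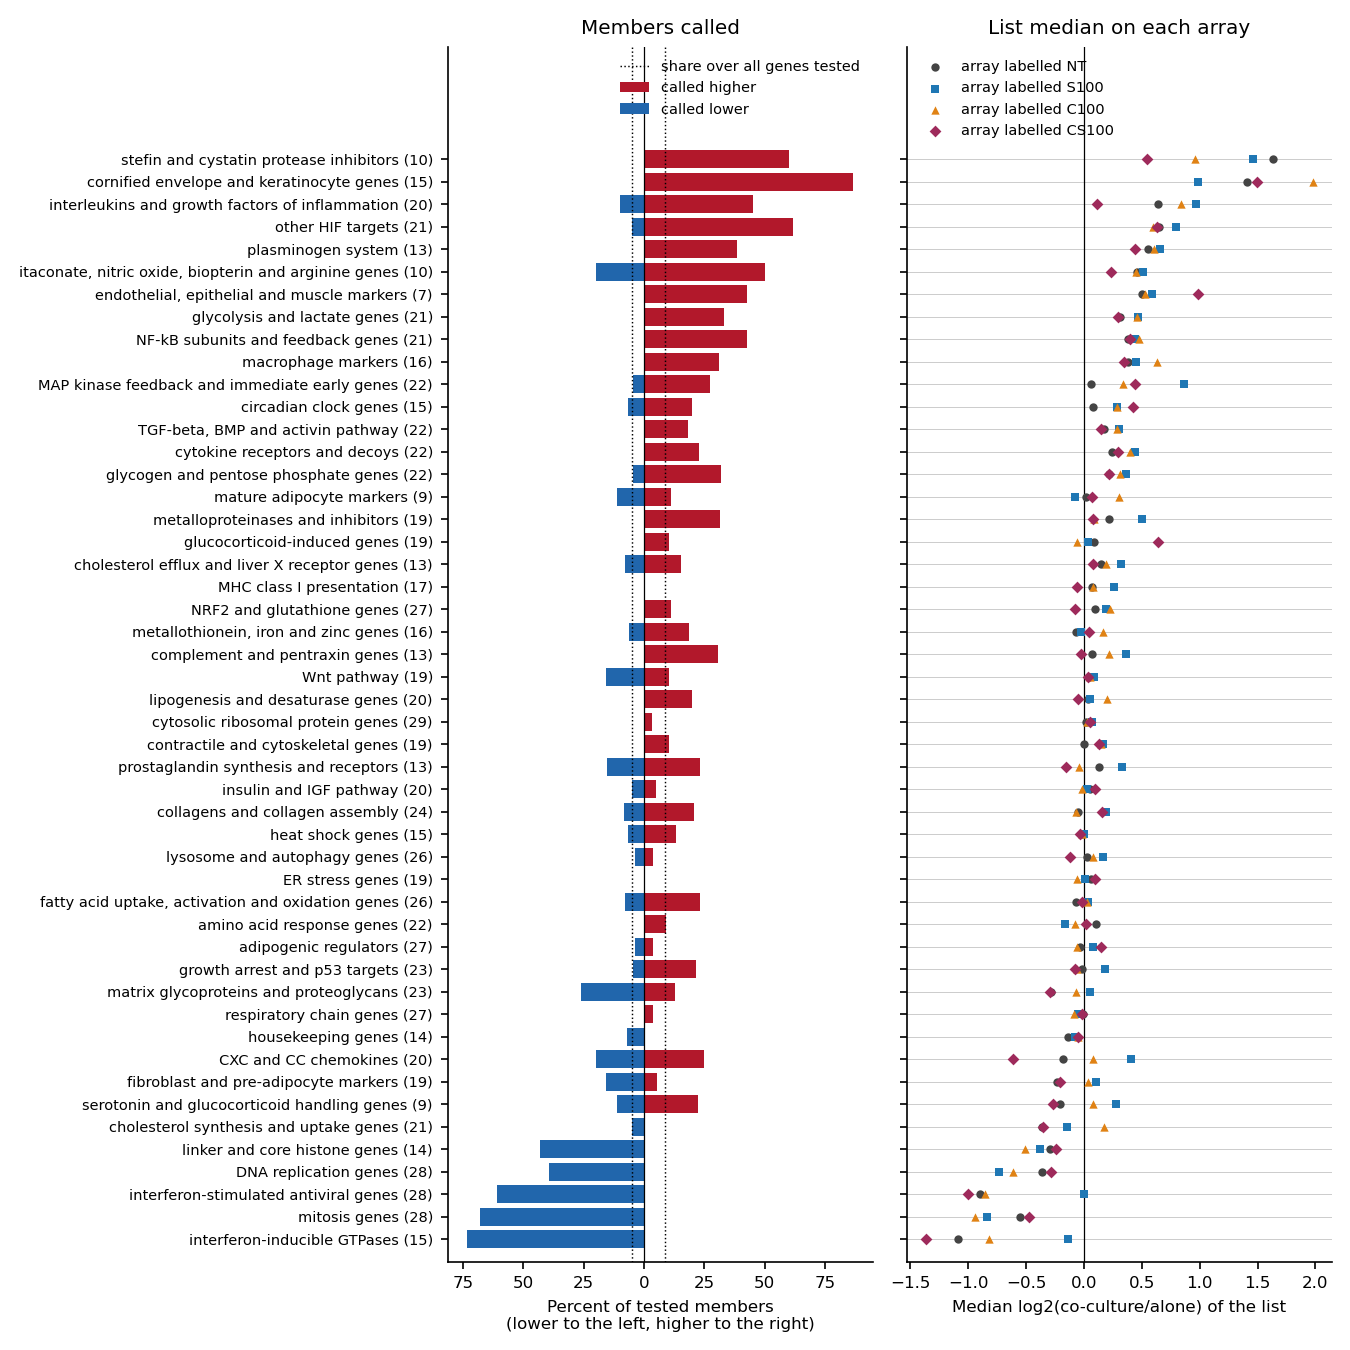
For each of the 49 gene lists (rows, with the number of genes tested), the left panel gives the percent of tested genes called higher (red bars to the right) and lower (blue bars to the left), with dotted lines at the shares over all genes (8.89% and 4.81%), and the right panel gives the list median of the log2 ratio on each array (symbols). Lists are ordered by the median of gene means, from stefins at the top (1.24) to interferon-inducible GTPases at the bottom (-0.86), and the antiviral list, at -0.71, turns to 0.056 without loess.

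Markers of cell types were set against the label of the lower well. Of 20 fibroblast and pre-adipocyte markers 19 were tested and 18 were well above background in both channels on all arrays, with summed signals of 279216 to 526156 in Cy5 and 289693 to 549298 in Cy3. Of these, 1 was higher, 3 were lower and the median was -0.14, which turned to 0.588 without loess and to 0.028 without the array labelled CS100. Mature adipocyte markers, of which 9 of 18 were tested, summed to 59284 to 81638 in Cy5 and 49358 to 90863 in Cy3. Macrophage markers summed to 9772 to 25030 in Cy5 and 6561 to 10548 in Cy3, and of 16 tested out of 28, 5 were higher, none lower and the median was 0.40. The higher ones were Mrc1, the lectin receptors Clec4e at 2.21, 2.28, 2.17 and 1.35 (2.0 ± 0.44, adjusted p = 0.000321) and Clec4d (1.44 ± 0.35), Aif1 (0.68 ± 0.23) and Cybb, a subunit of the phagocyte oxidase (at least 1.05-fold). Ptprc, Laptm5, Tyrobp, Fcgr1, Fcgr3, Ccr2 and Ncf1 were not well above background in Cy5 on any array. In Cy3, Laptm5 and Ccr2 were so on 1 array. Cx3cr1, Msr1 and Spi1 were well above background on 1 array in each channel, and Cd68 and Clec7a had no probe. Of the 16 tested, 15 were so on all 4 arrays in Cy5 and 8 in Cy3, among them Csf1r, Cd14, Itgam, Itgb2 and Cd53 in both. In all, 15 of the 16 means were above 0. With no fold asked for, 8 had an adjusted p under 0.05 above 0 and none below it, against 5622 of all 12923 genes in either direction. Cybb (Cy3 above background on 0 arrays), Adgre1 (on 1) and Mrc1, Lyz2 and Marco (on 2 each) passed the filter only through Cy5. Such a filter favours values above 0, so these counts do not test for macrophage RNA. Csf1r (0.58), Adgre1 (0.05) and Lyz2 (-0.05) were not called. The part of macrophage RNA in the cytokine and protease results was not tested. Of 7 endothelial, epithelial and muscle markers tested out of 18, 3 were higher, the keratin Krt19 at 1.68, 2.42, 2.50 and 1.92 (2.13 ± 0.39, adjusted p = 0.000255), the cadherin Cdh5 (1.30 ± 0.32) and Pecam1 (0.95 ± 0.25), with summed signals of 1642 to 2448 in Cy5 and 1142 to 1539 in Cy3.

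The ratio at 24 h was then set against those at 6 h and 48 h, each on 4 arrays of a slide of its own, so that slide and time cannot be told apart. Among 13344 genes, 321 had a higher ratio at 24 h than at 6 h (2.41%) and 123 a lower one (0.922%). Against 48 h, 2189 were higher (16.4%) and 1837 lower (13.8%). A ratio above both other times was called for 78 genes (0.585%) and one below both for 29 (0.217%). Of the 76 genes above both that were also tested at 24 h alone, 14 had no Cy3 signal well above background on any 24 h array, so that their differences rest on a signal at background. Both differences share the 24 h arrays. Without the arrays labelled S100 and CS100, the count above both was 49, while without that labelled C100 it was 46 and without that labelled CS100 it was 51. The count below both was 18 without NT and 50 without the array labelled S100, without which 185 genes were lower than at 6 h.

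Neat1, the long noncoding RNA that builds nuclear paraspeckles, was the brightest named gene above both times. It was at 1.1, 1.73, 1.05 and 0.41 at 24 h (1.07 ± 0.54, adjusted p = 0.00433), with all arrays above 0, and had means of -0.48 at 6 h and -0.84 at 48 h. The GABA receptor subunit Gabbr2 was at 1.30, 0.84, 0.38 and 1.33 at 24 h, -0.67 at 6 h and -1.09 at 48 h, although its Cy3 signal was above background on 1 array and its call at 24 h was lost without NT (0.85, adjusted p = 0.0743) or without those labelled S100 and CS100 (0.84, adjusted p = 0.0803). Spint2, an inhibitor of serine proteases, was at least 1.79-fold higher at 24 h, with mean ratios of 0.77 and 1.17 at the other times, and its bound does not settle whether it lay above the ratio at 48 h. The monocarboxylate transporter Slc16a7 was at 1.16, 0.35, 0.95 and 0.31, against -0.80 and -0.58, and its call at 24 h was lost without NT (0.54) or C100 (0.60, adjusted p = 0.0651). Hyal6, a hyaluronidase relative, was near 0 at 24 h (0.21 ± 0.12) and below 0 at 6 h (-1.27) and 48 h (-1.11).

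Genes below both other times at 24 h included Acod1, whose ratio of 2.48 ± 0.74 lay between means of 3.39 at 6 h and 3.66 at 48 h in time but under both in size. Dio2, which activates thyroid hormone, was at -0.53, 0.33, 0.62 and -0.56 at 24 h, with the arrays labelled S100 and C100 above 0 and the other 2 below it, against 1.20 at 6 h and 2.44 at 48 h. The type I interferon gene Ifnb1 was at -1.21, 0.33, -1.05 and -1.08 (-0.75 ± 0.72), low on all arrays but the one labelled S100, against 0.63 and 0.27. Aqp3, a channel for water and glycerol, was at -0.52, 0.63, 0.52 and -0.33, against 0.95 and 0.98. Rasgef1a, Frat2, a Wnt regulator, and the carboxypeptidase relative Cpxm1 were also near 0 at 24 h (0.03 ± 0.44, 0.14 ± 0.34 and -0.07 ± 0.31) and above 0 at both other times.

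Several leading genes of 24 h took different courses. Fos had means of 2.25 at 6 h and 2.26 at 24 h but -1.54 at 48 h, a difference of 3.80 between 24 h and 48 h (adjusted p = 2.19e-05). Fosb went from 1.59 to 2.02 and -0.62, and Scd2 from 0.61 to 0.93 and -0.93. Mrc1 had means of 2.34, 3.20 and 1.45. Ccn2 ran the other way, from -0.86 through 1.68 to 3.26. The stefin Cstdc4 had means of 3.93, 4.94 and 6.56, and Sprr2f of 2.49, 3.13 and 5.27. Asporin was at -1.70, -2.61 and -4.68, and Lpl at -0.90, -1.58 and -2.30.

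**Figure D5:**
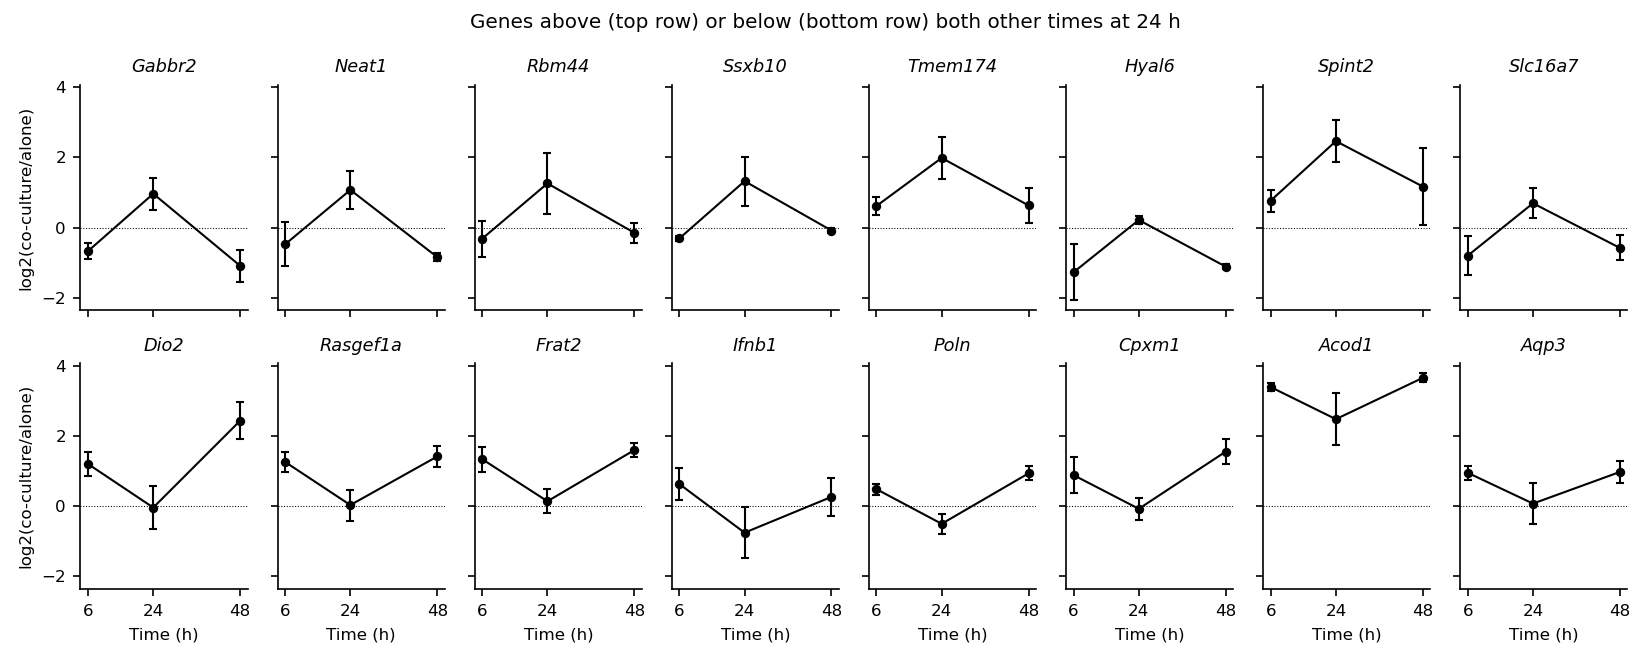
Mean log2 ratio of co-culture over alone (vertical axis) with its SD over 4 arrays (bars) by time (horizontal axis, in h) for the 8 named genes above both other times (top row) and the 8 below both (bottom row). Neat1 is above 0 at 24 h only (1.07), and Acod1 dips to 2.48 at 24 h.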

How the data were processed

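Each array carried Cy5-labelled RNA of co-cultured cells and Cy3-labelled RNA of cells grown alone, labelled with the Quick-Amp kit per the labels. The authors extracted spot intensities with Agilent Feature Extraction, 10.7.3.1 in the file headers but 10.5.1.1 in the submitters' processing notes, which subtracted background and normalized the dyes (linear and lowess). The deposited value table holds log10 ratios equal to those of the scanner files within 0.00499. From the deposited processed intensities, log2 of Cy5 over Cy3 was computed for 43020 spots that were no controls, 305 to 670 outlier spots an array were left out, and repeated spots were averaged. RefSeq accessions (GRCm38.p6) gave a gene for 27508 of 39429 probes. Testing required signal well above background, in Cy5 or Cy3, on 3 or more of the 4 arrays. The brightest probe stood for a gene, and in 6 of 3215 genes with more probes these were called both ways. The ratio was tested against 0 with limma 3.58.1 in R 4.3.3 (eBayes with a mean trend, 3 residual degrees of freedom before moderation, Benjamini-Hochberg adjustment, two-sided). Time differences were fitted over 12 arrays. A gene without Cy3 signal above background was given a bound, the mean Cy5 level over the higher of its Cy3 value and the lowest signal well above background. That bound holds for the deposited processed signals and can exceed the ratio found with a background offset. The script was tested on simulated data.

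Among called genes with the same sign on all 4 arrays, clone names, predicted genes and olfactory or vomeronasal receptors aside, named genes were the 15 highest and 15 lowest, the 10 highest and 10 lowest of the brightest 10%, and the 2 largest of each of 49 lists. Genes the study names in these lists, the 8 furthest above and the 8 furthest below both other times and the 10 of the widest range were added. Some genes are not reported here. Further called genes come from the same lists. The members and lists were chosen with earlier results of these data known. Alternatives covered background correction, dye centring, filters, probes, the deposited log10 value table, fold, array weights and leaving out arrays. Precision is limited by the number of arrays.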

Additional observations from a re-analysis of the deposited data

Results flagged for a closer look

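In 12 of 217 sets of 4 values checked, 1 array lay far from the other 3 relative to the range, and chance gives about 1 such set in 20. Their means were 1.94 for Ankrd37, 1.43 for Bhlhe41, 1.07 for Ccn1, 2.0 for Clec4e, -1.88 for H1f5, -1.52 for H2ac22, 1.48 for Hilpda, -0.75 for Ifnb1, 1.56 for Ppp1r3c, 0.03 for Rasgef1a and 0.66 for Uqcrh, and the median of the antiviral list was -0.71.

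Ratios that differed from both other times by limma's test of the difference are given as 24 h minus 6 h and then 24 h minus 48 h. Among the genes above both times, Gabbr2 differed by 1.63 and 2.05, Neat1 by 1.55 and 1.91, Rbm44 by 1.57 and 1.41, Ssxb10 by 1.63 and 1.41, Tmem174 by 1.37 and 1.35, Hyal6 by 1.49 and 1.33, Spint2 by 1.70 and 1.29, and Slc16a7 by 1.49 and 1.27. Among the genes below both, Dio2 differed by -1.24 and -2.47, Rasgef1a by -1.23 and -1.38, Frat2 by -1.20 and -1.46, Ifnb1 by -1.39 and -1.02, Poln by -0.99 and -1.44, Cpxm1 by -0.96 and -1.63, Acod1 by -0.91 and -1.18, and Aqp3 by -0.88 and -0.90. Rbm44, Ssxb10, Tmem174 and Spint2 had no Cy3 signal well above background at 24 h, so that their differences rest on a signal at background and are not bounds.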

How the results depend on the processing

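Against 1149 genes called higher and 622 lower at 24 h, background correction with an offset of 50 or 16 gave 640 and 760 higher, both channels above background 695 higher, median centring without loess (chosen after seeing the data) 4565 higher and 99 lower, no filter on dim probes 1022 lower, and a 2-fold threshold 543 and 139. Leaving out 1 array gave 953 to 1156 higher and 574 to 770 lower. Above 6 h (321 genes) a 2-fold threshold gave 140, the fit without the arrays labelled S100 and CS100 165, and leaving out 1 array 229 to 363. Below 6 h (123) the 2-fold threshold gave 32 and leaving out 1 array 85 to 185. Above and below 48 h (2189 and 1837) the 2-fold threshold gave 889 and 705, and leaving out 1 array 2099 to 2265 and 1700 to 1880. Above both times (78) the offset of 50 gave 42, the 2-fold threshold 23, the fit without S100 and CS100 49, and leaving out 1 array 46 to 96. Below both (29) these were 14, 9 and, without 1 array, 18 to 50, with 48 without the filter. With treatment as a replicate block the counts were 337 and 154 against 6 h, 2200 and 1840 against 48 h, 76 above both and 32 below. Same-treatment deviations at 2 times correlated between -0.07 and 0.349, so that the number does not pair the arrays. Of 142 called genes named by rule, 18 lost the call with the offset of 50 and 29 moved by over 1.5-fold, all toward 0. With the offset of 16 these were 11 and 22, all toward 0, and without loess 31 lost the call and 79 moved, 53 to a smaller and 26 to a larger size. Leaving out 1 array lost 1 to 15 of these calls. The calls lost with the offset of 50 include Wnt10b (0.29), Tph1 (0.27), Igfbp3 (0.37), Slc2a4 (0.58), Cxcl2 (0.55), Ccl4 (0.26), Il19 (0.53), Gabbr2 (0.22), Inhba (0.56), Atp6v0d2 (-0.45) and Limch1 (-0.54).

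Signs turned for these genes. Without loess, Acadl came to 0.15, Acadm 0.36, Acsl1 0.41, Ccl8 0.37, Cdc20 0.06, Cenpe 0.02, Col3a1 0.22, Cpxm1 0.03, Dio2 0.04, H2ac11 0.51, H2ac15 0.09, H2ac20 0.34, Hmgcs1 0.06, Isg15 0.39, Ly6c1 0.59, Mcm6 0.21, Pparg 0.26 and Zbtb16 0.12. With array weights, Dio2 came to 0.11 and Rasgef1a to -0.04. Without the arrays labelled S100 and CS100, Dio2 came to 0.04, Frat2 -0.06, Rasgef1a -0.21 and Serpina3m -0.04. Pdpk1 was -0.01 with the offset of 50 and Tnfrsf1a -0.02 as a mean of probes. Leaving out 1 array, the lowest and highest values were -0.11 and 0.27 for Aqp3, -0.20 and 0.04 for Cpxm1, -0.26 and 0.14 for Dio2, -0.02 and 0.24 for Frat2, -0.19 and 0.13 for Rasgef1a, -0.49 and 0.61 for Serpina3m and -1.04 and 0.18 for Zbtb16. Why these values turned was not tested. Signal over background limits the ratios of dim genes.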

Other observations

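The genes below are among those that spread most widely between the 4 arrays and were chosen for that spread, so that their values carry no test of it. The serpin gene Serpina3m was, in the order NT, S100, C100 and CS100, at -0.24, -1.38, 0.16 and 1.91 and Ear2, a ribonuclease of eosinophils, at -1.45, -3.02, -2.47 and 1.82. Smad9, a mediator of BMP signals, was at -2.50, -0.91, -0.06 and 0.75. The aldehyde dehydrogenase gene Aldh1a7 was at -1.46, -2.45, -2.78 and 0.59 and the potassium channel gene Kcnk10 at 1.14, 2.78, 1.75 and -0.40, and the calls of these last genes were lost without the array labelled NT, that labelled S100 or that labelled C100.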
